A study of Mus musculus with 6 samples.

Results

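Complex I of the mitochondrial respiratory chain takes electrons from NADH, hands them to ubiquinone and pumps protons across the inner membrane. Its nuclear-encoded subunits carry Nduf gene symbols. The genes described here are those whose symbol is Nduf, one of the letters a, b, c, s or v, and a number, reached from the transcript accession of each array probe. Of 37 such genes in the RefSeq table, 36 had a probe, and Ndufb1 had none that matched. They are 36 of 22815 genes with a symbol on the array. All 36 passed the filter on dim probes in both groups, and they are 36 of the 14701 genes tested. The assembly factors, whose symbols start with Ndufaf, are not among them.

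Total RNA was taken from the hearts of 6 male C57BL6 mice aged 10 weeks and hybridised to 1-colour Agilent arrays, 1 array per mouse. All mice were starved for 16 h and then given 20 mg/kg of lipopolysaccharide (LPS, bacterial endotoxin) into the peritoneum. At 3 and 24 h after LPS, 3 mice received saline and 3 received human thrombomodulin made by recombinant means (rhTM), the soluble version of a thrombin-binding receptor on endothelium. Hearts were taken at 30 h. Every heart had seen LPS and fasting, so rhTM is set against saline after LPS throughout, and no untreated heart enters any value. Levels are given on a log2 scale with each array's 75th percentile set to 0. A change is the rhTM mean less the saline mean, followed by its fitted SE (n = 3 and 3). A gene is called when its adjusted p (limma, Benjamini-Hochberg over all 14701 genes) is under 0.05.

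Between 54.8% and 62.8% of spots besides controls were well above background on an array, and 0 were saturated. Slide 1 held saline 1 and 2, whereas slide 2 held saline 3 and the 3 rhTM arrays. The slides were scanned on different days. A value within slide 2 is the mean of the rhTM arrays minus saline 3, so it rests on 1 saline heart. Saline 3 differed from saline 1 and 2 in many of the genes described here, above them in some and below them in others. Values within slide 2 are therefore given beside most results. All 10 cardiomyocyte markers, among them Myh6, Tnnt2 and Actc1, were well above background on every array.

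In heart muscle, which draws most of its ATP from oxidative phosphorylation, complex I is the main entry of electrons into the chain. Its peripheral arm holds an N module, which binds NADH and flavin, and a Q module, which passes electrons over iron-sulphur clusters to ubiquinone. Its membrane arm pumps protons and is built around subunits encoded in mitochondrial DNA. Nuclear genes encode 7 core catalytic subunits, present in bacteria too, and a larger number of accessory subunits that surround and stabilise them.

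Subunit genes of complex I lay higher in rhTM hearts, mostly by a modest amount. Of the 36 genes, 34 had a higher mean with rhTM, against 50.8% of all genes tested. Their median change was 0.53, and that of all genes was 0.01. The test called 2 of 36 higher, Ndufa8 and Ndufb3, a share of 5.56% against 2.75% of all genes. It called 0 lower, against 2.41% of all genes. At an unadjusted p under 0.05 limma gave 16 higher and 0 lower, where 15.1% and 15.6% of all genes were. In 20 of the 36 genes every rhTM heart lay above every saline heart, which held for 17% of all genes. The changes ranged from -0.12 to 1.51, and 21 genes lay above 0.49, the 75th percentile of all changes.

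**Figure D1:**
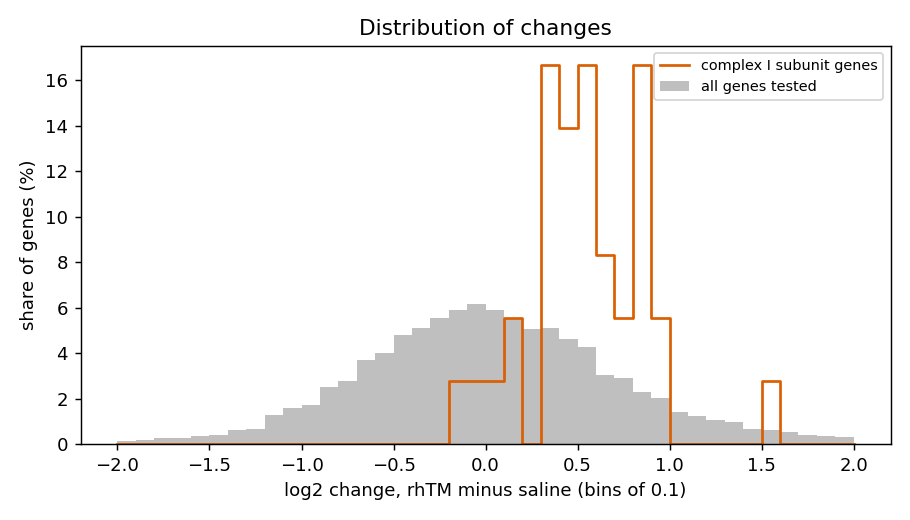
Share of genes (%) by log2 change, rhTM minus saline, in bins of 0.1, for all 14701 genes tested (grey bars) and the 36 complex I subunit genes (orange line). The subunit genes lie between -0.12 and 1.51, with a median of 0.53 against 0.01. Beyond the axis lie 169 genes below -2 and 354 above 2, none of them a subunit gene.

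Levels in single hearts showed where the groups were close. The median over the 36 genes was 6.81, 6.79 and 7.05 in saline hearts 1 to 3, against 7.61, 7.41 and 7.37 in rhTM hearts 1 to 3. All rhTM hearts lay above all saline hearts in that median, and saline 3 came nearest to them. Within slide 2 the median change was 0.38, and 32 of 36 genes lay higher, against 49.8% of all genes. In 28 of 36 genes all 3 rhTM hearts lay above saline 3, against 37.1% of all genes. With the slide as a block 0 of 36 were called and the lowest adjusted p was 0.0667, while 3.83% of all genes were called higher. Blocking on the replicate number also left 0 of 36 called (lowest adjusted p = 0.0625), against 2.43% of all genes.

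**Figure D2:**
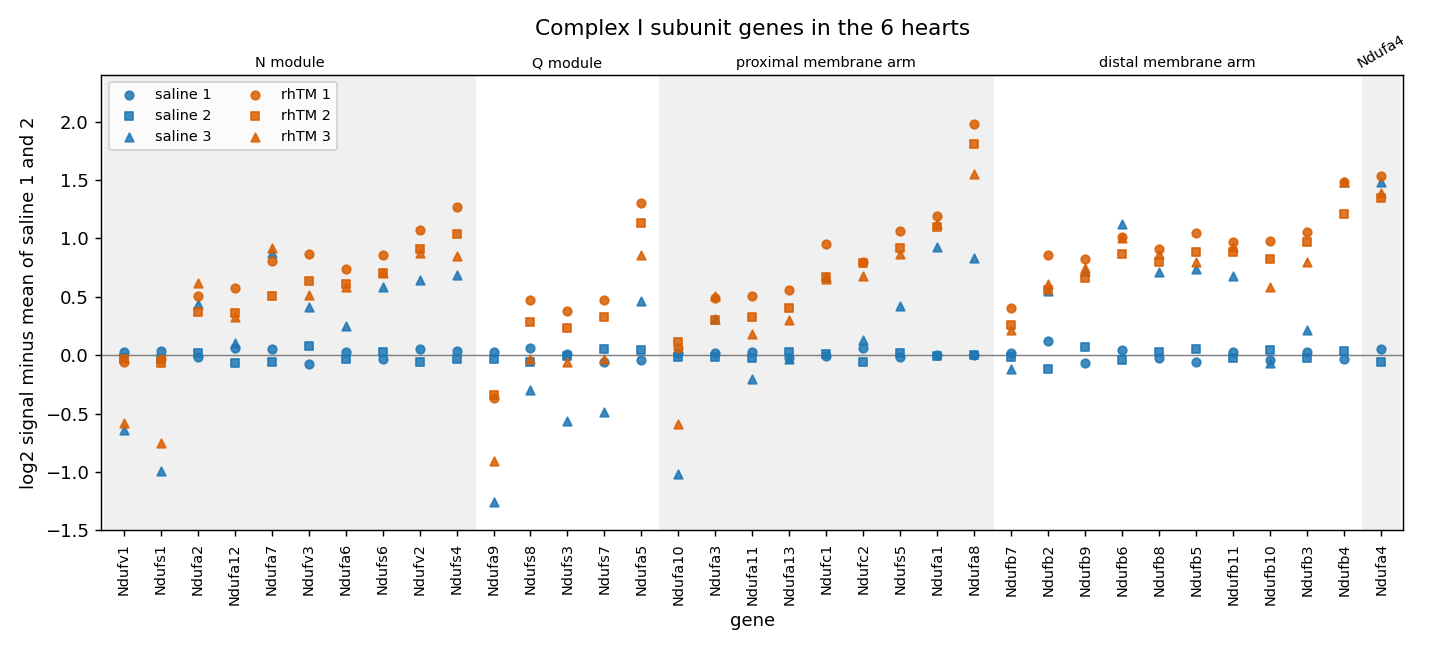
Log2 signal of 35 complex I subunit genes in each heart, minus the mean of saline 1 and 2 of the same gene. Blue symbols are saline hearts and orange symbols rhTM hearts, with triangles for saline 3 and rhTM 3, and genes are ordered by module. Saline 1 and 2 lie together near 0, and rhTM hearts lie above them in most genes. Saline 3 lies among the rhTM hearts for some genes. In 12 of all 36 genes saline 3 is the lowest heart, furthest below saline 1 and 2 in Ndufs1, Ndufa9 and Ndufa10.

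The calls rested on few arrays. Without saline 3, 23 of 36 genes were called higher (63.9%), against 20.5% of all genes. Without saline 1, saline 2, rhTM 1, rhTM 2 or rhTM 3 in turn, 0 of 36 were called, and the share of all genes called higher was 0.0136%, 0.374%, 0%, 0.0136% and 2.60%. In each of these fits the median of the 36 genes stayed above that of all genes, at 0.45 to 0.74.

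Most cardiomyocyte markers lay higher along with these genes. Of the 10, 9 lay higher with rhTM, against 50.8% of all genes, with a median change of 0.68. The test called 1 higher, against 2.75% of all genes, and this was phospholamban, Pln (1.35 ± 0.28, adjusted p = 0.0478). The summed signal of the 10, in units of each array's 75th percentile, was 2010 to 2990 in saline and 2950 to 4140 in rhTM hearts. Against saline 3 their median was 0.70. Neutrophil markers lay the other way, with 6 of 7 tested lower and 0 called. Their median change was -3.4, and -5.3 against saline 3. The spread was wide, with summed signals of 135, 216 and 1030 in saline hearts 1 to 3 against 104, 85 and 486 in rhTM hearts 1 to 3. Of 6 smooth muscle and pericyte markers 2 were called lower and 1 higher, against 2.41% and 2.75% of all genes. The summed signal of the 6 was 99.7, 136 and 88.3 in saline hearts 1 to 3 against 50.4, 58 and 50.1 in rhTM hearts 1 to 3, with the groups apart. Their median change was -0.43, and 0.32 against saline 3.

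Of 6 adipocyte markers 2 were well above background on every array, while Adipoq, Plin1 and the brown fat gene Ucp1 were so on none. Of the 2 tested, 0 were called. Summed over all 6 adipocyte markers, the signal was 78 to 213 in saline and 122 to 163 in rhTM hearts. Of 6 skeletal muscle markers 3 were well above background on every array, while Myh1 and Actn3 were so on none. Among the 4 tested 3 lay higher and 1 was called higher, against 50.8% and 2.75% of all genes. Summed over all 6 skeletal muscle markers, the signal was 1.26 to 2.3 in saline and 1.52 to 2.08 in rhTM hearts. No endothelial, fibroblast, macrophage or T and NK cell marker was called. The part of cell composition in the subunit changes was not tested, and in whole hearts fewer cells of a type and less RNA per cell cannot be told apart.

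Because many subunit genes lay higher together, their promoters were read for motifs of factors known to act on respiratory chain genes. RefSeq promoter windows of assembly GRCm38.p6, from 250 bases before to 50 after each gene's start, were at hand for 32 of the 36 genes. The NRF1 motif GCGCANGCG, searched like the others on both strands, was found in 8 of 32 (25%), against 6.47% of 27025 windows of that length. They were Ndufa5, Ndufa6, Ndufa8, Ndufa11, Ndufb4, Ndufb10, Ndufs5 and Ndufs6. The YY1 motif AANATGGCG was in 6 of 32 (18.8%) against 2.51%, the ETS motif CCGGAAG in 4 (12.5%) against 9.12%, and the estrogen-related receptor motif TNAAGGTCA in 1 (3.12%) against 1.26%. A match is a description of letters and not a bound site, and the motifs and their letters were chosen after the values were seen. The 27025 windows include genes that were not among those tested on the arrays. Whether a motif goes with the change under rhTM was not tested.

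The 150 bases before the start are shown for the 2 called genes and for Ndufb4 and Ndufs5, whose windows hold an NRF1 match, with matches in capitals. Ndufa8 lies at chr2:36049339-36049488 (minus strand), Ndufb3 at chr1:58586247-58586396 (plus), Ndufb4 at chr16:37654369-37654518 (minus) and Ndufs5 at chr4:123718187-123718336 (minus), all in GRCm38.p6.
Ndufa8: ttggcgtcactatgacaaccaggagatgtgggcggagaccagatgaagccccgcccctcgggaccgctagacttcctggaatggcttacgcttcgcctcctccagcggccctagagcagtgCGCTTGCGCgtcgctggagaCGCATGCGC
Ndufb3: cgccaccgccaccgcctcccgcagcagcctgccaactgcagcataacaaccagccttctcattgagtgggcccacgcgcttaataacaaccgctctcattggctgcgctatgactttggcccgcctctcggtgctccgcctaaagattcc
Ndufb4: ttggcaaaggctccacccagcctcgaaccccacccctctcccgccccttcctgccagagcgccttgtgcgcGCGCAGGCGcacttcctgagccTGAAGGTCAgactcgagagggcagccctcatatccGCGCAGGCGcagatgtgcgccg
Ndufs5: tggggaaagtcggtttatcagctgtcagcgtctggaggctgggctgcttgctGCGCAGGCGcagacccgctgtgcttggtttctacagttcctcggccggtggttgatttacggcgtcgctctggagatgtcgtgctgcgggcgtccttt
The called gene Ndufa8 has 2 NRF1 matches, while Ndufb3, the other called gene, has no match of any of the 4 motifs in this stretch. Ndufb4, with 2 NRF1 matches and 1 receptor match, had overlapping groups, and its values stand below with those of Ndufs5.

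The proximal membrane arm held the gene with the highest change. Ndufa8, an accessory subunit with CHCH-type cysteine motifs facing the intermembrane space, lay at 4.26, 4.26 and 5.09 in saline hearts 1 to 3, against 6.24, 6.07 and 5.81 in rhTM hearts 1 to 3. The groups were apart, and saline 3 was the saline heart nearest to the rhTM hearts. Ndufa8 rose by 1.51 ± 0.29, or 2.84-fold (adjusted p = 0.0430). Within slide 2 the difference was 0.95 (adjusted p = 0.0667), and the fit blocked on the replicate number gave an adjusted p of 0.0625.

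Ndufc2, a small membrane subunit, lay at 6.36, 6.24 and 6.43 in saline against 7.10, 7.09 and 6.98 in rhTM hearts 1 to 3. Both groups were tight, and saline 3 lay close to its group. The change was 0.71 ± 0.17 (adjusted p = 0.0603), and 0.62 within slide 2. Ndufs5, which also carries cysteine motifs of the intermembrane space, lay at 6.43, 6.47 and 6.87 in saline against 7.51, 7.37 and 7.32 in rhTM hearts. Its groups were apart, with a change of 0.81 ± 0.20 that missed the threshold (adjusted p = 0.0647). The difference within slide 2 was 0.54.

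Ndufa10 behaved differently from these across hearts. It lay at 6.01, 5.97 and 4.97 in saline against 6.05, 6.10 and 5.40 in rhTM hearts 1 to 3. Saline 3 and rhTM 3 were the low ones, and the groups overlapped. The change was 0.20 ± 0.36 over all arrays (adjusted p = 0.730) and 0.88 within slide 2 (adjusted p = 0.139). Without saline 3 it was -0.15, and the gene's other probe changed by 0.12.

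The other genes of this arm lay higher without passing. They were Ndufa1, an essential small membrane subunit (0.83 ± 0.29), Ndufc1 (0.54 ± 0.25) and Ndufa13, also known as GRIM-19 (0.43 ± 0.17). Ndufa11 changed by 0.41 ± 0.18 and Ndufa3 by 0.33 ± 0.19. The groups were apart for Ndufa1, Ndufa11 and Ndufa13 and overlapped for Ndufa3 and Ndufc1. Within slide 2 the values were 0.21 for Ndufa1, 0.09 for Ndufc1, 0.12 for Ndufa3, 0.45 for Ndufa13 and 0.54 for Ndufa11. In all, 9 of 9 tested genes of the proximal arm had a higher mean, against 50.8% of all genes. The test called 1 of them higher, against 2.75% of all genes. The median was 0.54 over all arrays and also within slide 2, although single genes moved.

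The distal membrane arm, which carries the outermost proton channels, had a median change of 0.64 over 10 genes. All 10 had a higher mean, against 50.8% of all genes, and 1 was called higher, against 2.75% of all genes. The called gene was Ndufb3, a small accessory subunit, at 5.70, 5.65 and 5.89 in saline against 6.73, 6.64 and 6.47 in rhTM hearts 1 to 3. The spread within each group was small (SD 0.13 and 0.13, n = 3), and the groups were apart. Ndufb3 rose by 0.87 ± 0.18, or 1.82-fold (adjusted p = 0.0478). It missed the threshold with normexp background correction (adjusted p = 0.0519), quantile normalization (0.117) and the mean of a gene's probes (0.0528). Within slide 2 it differed by 0.72 (adjusted p = 0.0777), and the fit blocked on the replicate number gave an adjusted p of 0.0682.

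Ndufb10, a partner of Ndufs5 on the intermembrane side, lay at 7.28, 7.37 and 7.26 in saline against 8.30, 8.15 and 7.91 in rhTM hearts. Saline 3 sat with saline 1 and 2 here, and the change of 0.82 ± 0.18 (adjusted p = 0.0543) was matched by 0.86 within slide 2. It was called when arrays were centred on the median of the genes tested. Ndufb11, an X-linked accessory subunit, lay at 7.39, 7.34 and 8.04 in saline against 8.33, 8.25 and 8.29 in rhTM hearts. Saline 3 lay most of the way to the rhTM hearts, and the change of 0.70 ± 0.24 (adjusted p = 0.117) was 0.24 within slide 2.

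Ndufb4 and Ndufb7 bound the range of this arm. Ndufb4 lay at 6.73, 6.80 and 8.25 in saline against 8.25, 7.97 and 8.25 in rhTM hearts. Saline 3 was level with the rhTM hearts, so that the change of 0.89 ± 0.42 (adjusted p = 0.202) turned to -0.09 within slide 2. Ndufb7, another intermembrane-space subunit, lay at 7.22, 7.19 and 7.09 in saline against 7.61, 7.46 and 7.42 in rhTM hearts. Its groups were apart by a small step, 0.33 ± 0.17 (adjusted p = 0.226), and 0.41 within slide 2.

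The remaining genes of the distal arm changed by 0.66 ± 0.26 (Ndufb5), 0.62 ± 0.25 (Ndufb8), 0.59 ± 0.34 (Ndufb6), 0.51 ± 0.25 (Ndufb9) and 0.49 ± 0.23 (Ndufb2). None was called. In 8 of the 10 genes saline 3 lay above saline 1 and 2, against 43.9% of all genes tested. Within slide 2 the difference was 0.18 for Ndufb5, 0.14 for Ndufb8, 0.03 for Ndufb9 and 0.13 for Ndufb2. The median over the arm fell to 0.16 within slide 2, where Ndufb6 (-0.17) and Ndufb4 lay lower.

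Of the Q module, Ndufa5, an accessory subunit, stood out. It lay at 7.60, 7.69 and 8.11 in saline against 8.95, 8.78 and 8.50 in rhTM hearts, with the groups apart. The change was 0.94 ± 0.23 (adjusted p = 0.0633), its other probe changed by 0.60, and the difference within slide 2 was 0.63. The 5 other genes of this module all had their lowest value in saline 3.

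Ndufs7 and Ndufs8, core subunits that hold iron-sulphur clusters next to ubiquinone, had overlapping groups. Ndufs7 lay at 6.94, 7.05 and 6.51 in saline against 7.47, 7.32 and 6.96 in rhTM hearts (0.41 ± 0.24, adjusted p = 0.270). Ndufs8 lay at 6.04, 5.92 and 5.68 in saline against 6.45, 6.26 and 5.95 in rhTM hearts (0.34 ± 0.21, adjusted p = 0.301). In both genes rhTM 3 fell among saline 1 and 2, and all rhTM hearts lay above saline 3. Within slide 2 Ndufs7 differed by 0.74 and Ndufs8 by 0.54.

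In Ndufs3, a core subunit of the same module, rhTM 3 was below saline 1 and 2 and all rhTM hearts were above saline 3. It lay at 6.71, 6.69 and 6.14 in saline against 7.08, 6.93 and 6.64 in rhTM hearts (0.37 ± 0.24, adjusted p = 0.318). Within slide 2 it differed by 0.74, which was not called (adjusted p = 0.0997).

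Ndufa9, an accessory subunit at the junction of the arms, had the lowest change of all 36 genes. It lay at 5.85, 5.79 and 4.56 in saline against 5.45, 5.48 and 4.91 in rhTM hearts, so that rhTM 1 and 2 were below saline 1 and 2 and rhTM 3 above saline 3. The change was -0.12 ± 0.39 over all arrays (adjusted p = 0.855) and 0.72 within slide 2 (adjusted p = 0.153). Its direction thus differed between the fit over all arrays and the comparison within slide 2.

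In the N module, where NADH is oxidised, the core genes had unlike changes over all arrays. None was called, and the difference between them was not tested. Ndufv2, which holds an iron-sulphur cluster beside the flavin site, lay at 6.26, 6.15 and 6.85 in saline against 7.28, 7.11 and 7.08 in rhTM hearts. The groups were apart, with a change of 0.74 ± 0.24 (adjusted p = 0.106) and 0.31 within slide 2. Ndufv1, which binds NADH and flavin, lay at 7.69, 7.64 and 7.02 in saline against 7.61, 7.63 and 7.08 in rhTM hearts. The groups covered the same range, with a change of -0.01 ± 0.27 (adjusted p = 0.982), and its direction turned with the background correction (0.02) and with median centring (0.07). Its other probe changed by -0.47.

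Ndufs1, the core subunit with the most iron-sulphur clusters, lay at 6.10, 6.03 and 5.07 in saline against 6.03, 6.0 and 5.31 in rhTM hearts. As in Ndufv1, only saline 3 and rhTM 3 were low, and the change was 0.05 ± 0.36 (adjusted p = 0.942), with -0.04 under quantile normalization. Within slide 2 Ndufs1 differed by 0.71 and Ndufv1 by 0.42 (adjusted p 0.208 and 0.337).

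All 7 accessory genes of the N module lay higher, against 50.8% of all genes. None was called, against 2.75% of all genes called higher. Ndufs4, whose loss in mice causes an encephalopathy like Leigh syndrome, lay at 4.81, 4.74 and 5.46 in saline against 6.04, 5.81 and 5.62 in rhTM hearts (0.82 ± 0.26, adjusted p = 0.10). Ndufa6, a small LYR-motif protein, lay at 6.95, 6.89 and 7.17 in saline against 7.66, 7.53 and 7.50 in rhTM hearts (0.56 ± 0.18, adjusted p = 0.103). In both the groups were apart, and the difference within slide 2 was 0.37 and 0.40.

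The other accessory genes of this module were Ndufs6, with a zinc site (0.56 ± 0.22), Ndufv3 (0.53 ± 0.21), Ndufa7 (0.45 ± 0.30), Ndufa12 (0.39 ± 0.17) and Ndufa2 (0.35 ± 0.20). Within slide 2 the difference was 0.17 for Ndufs6, 0.26 for Ndufv3, 0.32 for Ndufa12 and 0.05 for Ndufa2. Ndufa7 differed by -0.14 within slide 2, and on all 6 arrays its other probe was not well above background. Over the module the median was 0.49, and 0.31 within slide 2.

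**Figure D3:**
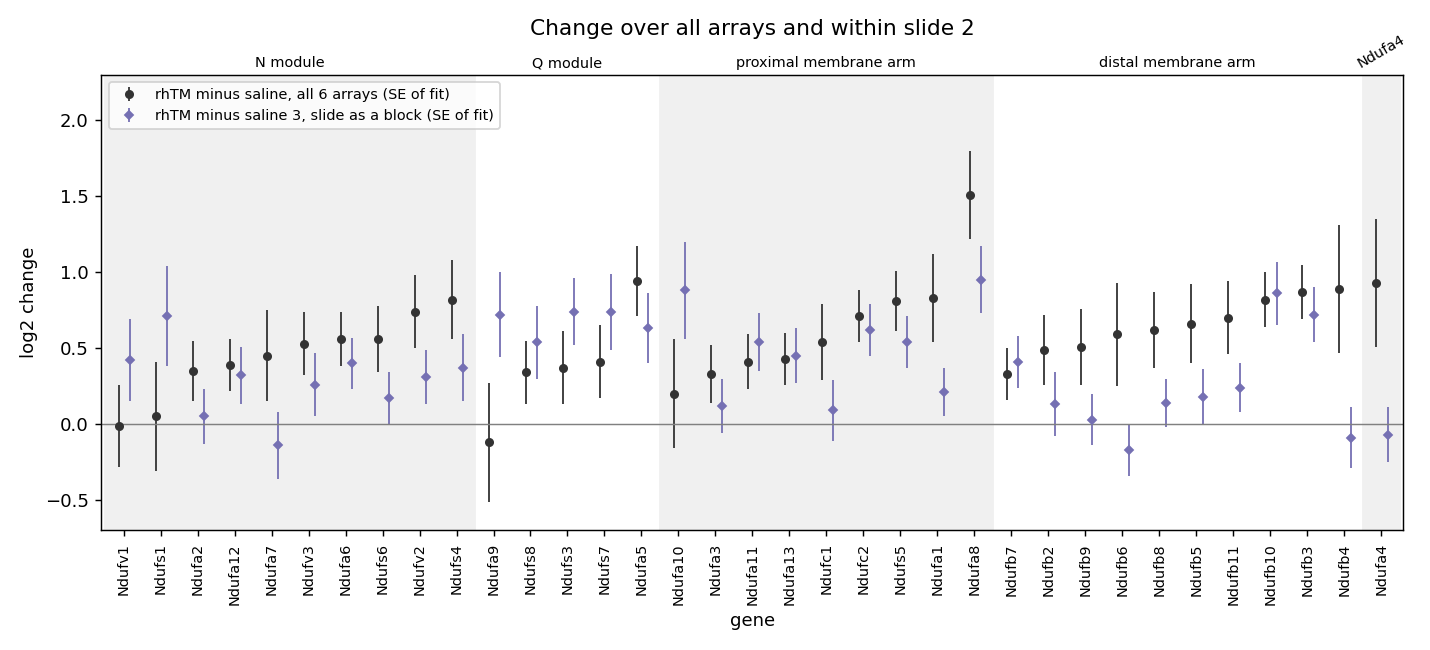
Log2 change of 35 complex I subunit genes with the SE of the fit, over all 6 arrays (black circles) and with the slide as a block, which is rhTM minus saline 3 (violet diamonds), ordered by module. The violet values lie above the black ones where saline 3 is low, most so for Ndufs1, Ndufa9 and Ndufa10. For most genes of the distal membrane arm the violet values lie below the black ones.

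Core and accessory genes are given side by side here, and the difference between them was not tested. The 7 core genes had a median change of 0.34, 0 were called, and 1 had its groups apart. The 28 accessory genes, Ndufa4 left out, had a median of 0.56, 2 called and 19 with groups apart. Of all genes, 2.75% were called higher, and 17% had every rhTM heart above every saline heart. Within slide 2 the order of the medians was the other way, at 0.71 for core and 0.29 for accessory genes. Saline 3 was the lowest saline heart in 6 of 7 core genes, against 6 of 28 accessory ones and 45.0% of all genes.

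**Figure D4:**
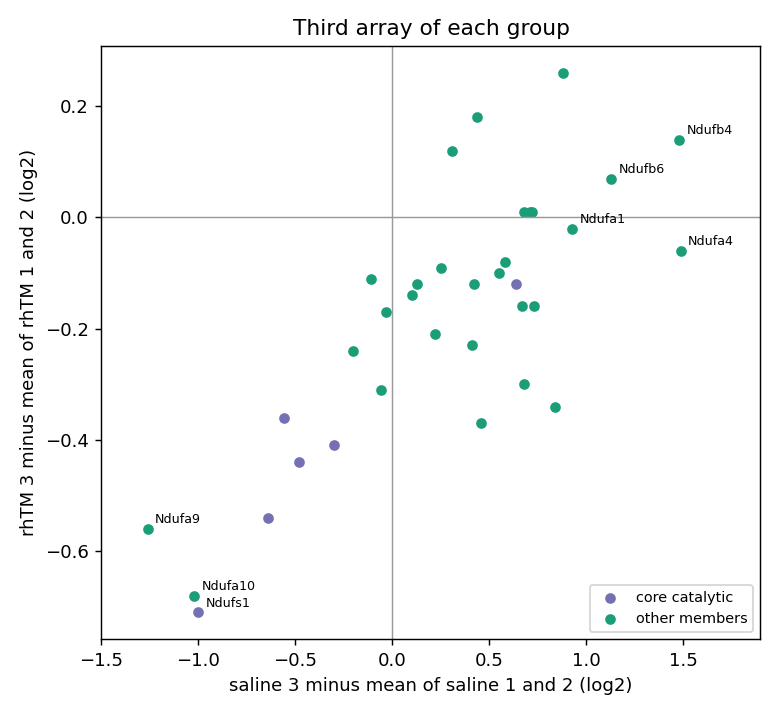
Deviation of saline 3 from the mean of saline 1 and 2 (x, log2) against that of rhTM 3 from the mean of rhTM 1 and 2 (y, log2), 1 point for each of 35 complex I subunit genes. Core catalytic genes (violet) are low in both arrays except Ndufv2, which is high in saline 3 and low in rhTM 3. Ndufa7 (0.88 in saline 3 and 0.26 in rhTM 3), Ndufb4 (1.48 and 0.14) and Ndufb6 (1.13 and 0.07) are among the genes above 0 in both.

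Saline 3 and rhTM 3 were also compared with the other hearts of their group. Saline 3 lay above saline 1 and 2 in 24 of 36 genes and below them in 12, whereas rhTM 3 lay below rhTM 1 and 2 in 24 and above them in 4. Across all genes tested, 43.9% had saline 3 above, and 44.7% had rhTM 3 below. The genes kept a similar order in both deviations. Across the 36 genes the deviation of saline 3 from saline 1 and 2 and that of rhTM 3 from rhTM 1 and 2 correlated at r = 0.792 (Spearman rho = 0.731), and across all 14701 genes at r = 0.372. Genes are not independent replicates, and saline 3 and rhTM 3 shared a slide with rhTM 1 and 2. The same arrays were also high in neutrophil markers within their groups, with a summed signal of 1030 in saline 3 and 486 in rhTM 3. They were the lowest of their groups in cardiomyocyte markers, at 2010 and 2950, and the part of either in the subunit values was not tested.

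Ndufa4, named as a complex I gene but known as a subunit of complex IV, lay at 6.40, 6.29 and 7.83 in saline against 7.88, 7.69 and 7.73 in rhTM hearts. Saline 3 fell inside the rhTM range. The change was 0.93 ± 0.42 (adjusted p = 0.189) and -0.07 within slide 2. Leaving it out kept the median at 0.53 over 35 genes.

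Other genes of the pathway were read from lists. Of 20 complex I assembly factors, which build the enzyme and are not part of it, 19 were tested, 16 lay higher and 1 was called, 5.26% against 2.75% of all genes. Their median change was 0.39, and 0.30 within slide 2. The called gene was Dmac2, a factor of membrane arm assembly, at 2.41, 2.55 and 1.89 in saline against 3.91, 3.92 and 3.34 in rhTM hearts (1.44 ± 0.27, adjusted p = 0.0427). Blocking on the slide kept its call (1.83, adjusted p = 0.0346), although its other probe changed by 0.43 and the call was lost for the mean of its probes. Of the other Nduf-named genes, Ndufab1, the mitochondrial acyl carrier protein, changed by 0.45 ± 0.23 (adjusted p = 0.233). Ndufa4l2, a paralog of Ndufa4 induced by hypoxia, changed by -0.32 ± 0.30 (adjusted p = 0.485) and by 0.32 within slide 2. No probe was matched to a complex I gene of mitochondrial DNA, so those genes were not analysed here.

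Complexes II to V gave a similar picture. Of 42 genes tested 40 lay higher, against 50.8% of all genes, and the median change was 0.52, against 0.01. The test called 2 (4.76%), against 2.75% of all genes. These were Cycs, cytochrome c (1.21 ± 0.24, adjusted p = 0.0457), and Sdhd, a membrane anchor of complex II (0.94 ± 0.20, adjusted p = 0.0495). Blocked on the slide, their adjusted p rose to 0.102 and 0.0896, and blocked on the replicate number to 0.0634 and 0.0706. Within slide 2 the median over the 42 genes was 0.38, as for the complex I genes. No test between the lists was made.

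The number of subunit genes called depended on the processing. With normexp background correction 1 of 36 was called (2.78%), against 1.36% of all genes, and with quantile normalization 1 against 2.24%. Centring arrays on the median gave 3 (8.33%) against 3.29%, and the mean of a gene's probes gave 1 against 2.41%. Where 1 gene was called it was Ndufa8, and median centring called Ndufa8, Ndufb3 and Ndufb10. Without a filter on dim probes 0 were called against 0.579%, and among genes above background on all 6 arrays 2 against 2.27%. Array weights gave 29 (80.6%) against 31.7%. The deposited table, whose baseline differs between slides, gave 17 (47.2%) against 15%.

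**Figure D5:**
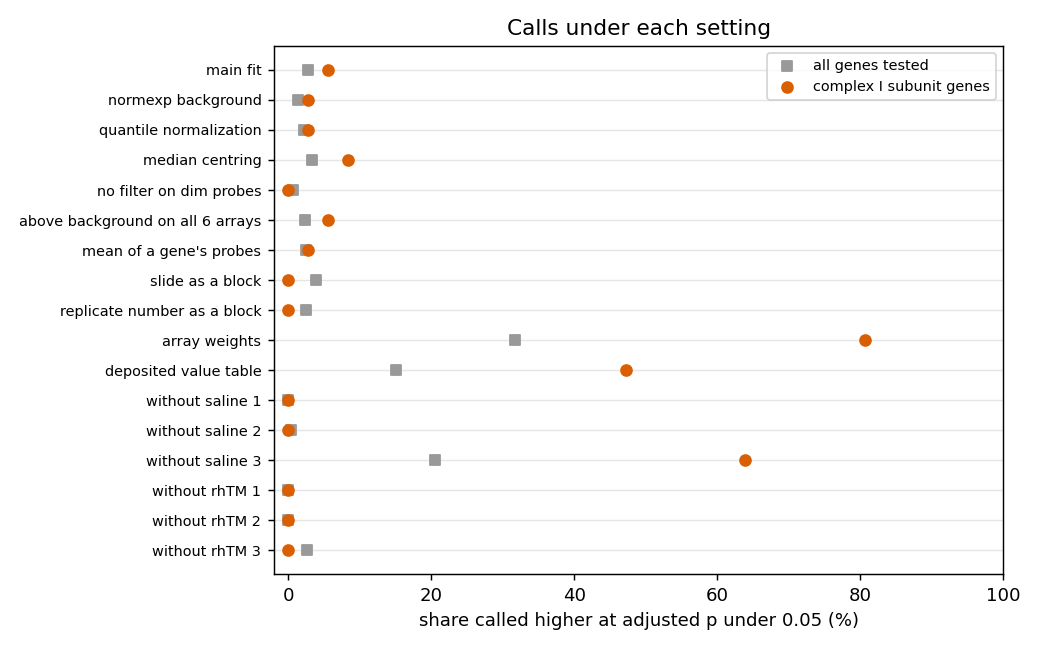
Share (%) called higher at an adjusted p under 0.05 under each setting, for the 36 complex I subunit genes (orange circles) and all genes tested (grey squares). Without rhTM 1 both shares are 0%, and with array weights they are 80.6% and 31.7%.

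Some probes may not tell a gene from its copies. The RefSeq table lists Ndufb4b and Ndufb4c beside Ndufb4, Ndufs6b beside Ndufs6, Ndufa11b beside Ndufa11, and pseudogenes of Ndufa12 and Ndufs5, and their values are uncertain in that respect.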

How the data were processed

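The authors deposited spot intensity values in 6 scanner files, 3 per group by the sample titles. The file headers give Agilent Feature Extraction 10.7.3.1 and an mm9 grid, and the submitters' processing notes give version 9.1. The processed signal used here is corrected for background, with no scaling across arrays. A value table on a log2 scale was deposited too, with its centring not given in the sources used here. Each column matched the scanner's log2 processed signal less its 75th percentile and less a per-probe baseline, which was the same within a slide (SD of the difference up to 1.89e-05) and not between slides (SD 0.825, 56237 probes), so that what it is relative to stays unknown. Its column medians were -0.02, -0.16 and 0.10 in saline 1 to 3 and -0.08, 0.03 and 0.09 in rhTM 1 to 3.

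Here log2 processed signals had the 75th percentile of their array subtracted, and probes flagged as outliers (368 of 56605) were dropped. Spots of a probe were averaged. Probes were named through transcript accessions in a RefSeq table of GRCm38.p6 (32789 named, 23448 not). A gene was read from its probe with the highest mean, and kept if well above background on all arrays of a group. The fit used limma 3.58.1 (R 4.3.3), with group as its term, and was tested on simulated data. Alternatives were normexp background (offset 50, on the median spot signal, since the files hold no mean signal), quantile normalization, median centring, other filters, the mean of probes, array weights, the deposited table, slide and replicate blocks and each array left out, with the tested genes kept.

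Arrays with the same number deviated together, with correlations over genes of 0.319, 0.235 and 0.372. All exceed 0.1, the minimum set for treating the numbers as pairs, but saline 1 and rhTM 2 correlated at 0.314, and no label ties a number to a shared day or litter. The number of arrays limits the precision.

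Members and gene lists were chosen with earlier results of these data known. Tested members are named, except 1 that is not reported here on its own and enters only counts, medians and correlations. Values in each array are given for the 10 with the smallest p, core genes, the highest and lowest of each module and Ndufa4. Of other lists, called genes or those with the smallest p are named.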

Additional observations from a re-analysis of the deposited data

How the results depend on the processing

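The median change of the 36 complex I subunit genes, 0.53, was 0.38 with the slide as a block, 0.67 with array weights and 0.45 to 0.74 with 1 array left out. The genes called higher, 2, numbered 1 with normexp background, quantile normalization or the mean of probes, 0 without a filter on dim probes, and 0 with the slide or the replicate block. They numbered 29 with array weights, 17 with the deposited table, whose baseline differs between slides, and 0 to 23 with 1 array left out. None was called lower under any setting.

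Assembly factors called higher, 1, numbered 0 without a filter or with the mean of probes, 2 with the slide block, 10 with array weights, 6 with the deposited table and 0 to 7 with 1 array left out. Those called lower, 0, numbered 1 with array weights and 0 to 1 with 1 array left out. Complexes II to V, with 2 called higher, gave 0 with quantile normalization, without a filter, and with the slide or replicate block. They gave 1 with the mean of probes, 32 with array weights, 18 with the deposited table and 0 to 28 with 1 array left out, and 1 called lower with array weights. Over all genes the share called higher was 31.7% with array weights (31.2% lower), 15% with the deposited table, 3.83% with the slide block and 0% to 20.5% with 1 array left out, each highest count being that without saline 3.

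Directions turned for the genes that follow. With the slide block Ndufa4 (-0.07), Ndufa7 (-0.14), Ndufb4 (-0.09) and Ndufb6 (-0.17) lay lower and Ndufa9 (0.72) and Ndufv1 (0.42) higher. The deposited table gave 0.54 for Ndufa9 and 0.33 for Ndufv1. Ndufv1 was also 0.02 with normexp and 0.07 with median centring. Ndufs1 was -0.04 with quantile normalization and -0.06 with array weights. With 1 array left out Ndufa10 ranged from -0.15 to 0.42, Ndufa9 from -0.54 to 0.10, Ndufs1 from -0.29 to 0.28 and Ndufv1 from -0.22 to 0.17. Ndufa4l2 was 0.32 with the slide block and 0.25 with the deposited table. Why values moved was not tested. Calls over all genes were 2.75% higher and 2.41% lower, and 3.29% and 1.82% with median centring.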
